A study of Mus musculus with 10 samples.

Results

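Surface receptors that mark the later stages of B cell development were examined, namely the products of Ighd, Cd22, Cd72, Cr2, Fcer2a, Ms4a1, Cd38, Tnfrsf13c, Tnfrsf13b and Cd40. They were chosen by name, with earlier results of these data known, as 10 of the 55494 genes that the annotation pairs with a listed transcript. All 10 passed the filter on low counts that left 13729 genes to test. RNA was sequenced from leukemia initiating cells (LICs) sorted from the spleen of mouse pups aged 13 days, 7 days after treatment, with 5 libraries from pups given 20 µg of Poly(A:U), a double-stranded RNA analogue sensed by Toll-like receptor 3, and 5 from pups given 50 µl of PBS. Pups of both groups carried the RFP/RET transgene, which as an Eµ-Ret construct is driven by the immunoglobulin heavy chain enhancer in lymphoid cells, and no group without the transgene was analysed here. The gate used in the sort is not given in the sources used here.

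Many of these receptors are acquired or become more abundant as B cells leave the bone marrow precursor stages, while some, such as CD20, CD72 and CD38 in the mouse, are already present on precursors. IgD and the inhibitory lectins CD22 and CD72 sit with the B cell receptor and tune its signal. CD21 and CD23 bind complement fragments and IgE on mature follicular and marginal zone cells, and the receptors of the tumour necrosis factor (TNF) family, BAFF receptor, TACI and CD40, carry survival and T cell help signals. Precursor B cells are known for the surrogate light chain and the interleukin 7 receptor.

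The libraries held 17859006 to 22587871 estimated reads. Markers of B cell precursors were abundant in every library: their summed level was 9001 to 10109 CPM (reads scaled to a common library total) in Poly(A:U) libraries and 7132 to 11413 CPM in PBS libraries, led by Cd79a, the signalling chain of the receptor, and Igll1, the surrogate light chain. The receptors of mature B cells were thus measured in cells with a precursor profile. One library, PBS 4, stood apart. It had 16006 genes with at least 10 reads, against 13396 to 14702 in the other 9, and its T cell markers summed to 381 CPM, against 37.8 to 75.1 CPM in Poly(A:U) libraries and 39.7 to 50.8 CPM in the other PBS libraries. Of the 11 T cell markers, 8 were above the median of the other 9 libraries in PBS 4: Tcf7 stood at 151 CPM, Lck at 140 CPM, Cd3e at 53.9 CPM, Trac at 12.6 CPM, Cd4 at 6.64 CPM and Cd3g at 3.69 CPM, with smaller values for Thy1 and Cd8a. Cd2, Cd5 and Cd3d were below that median, and Cd3d and Cd8a stood at 0.15 CPM each. Macrophage markers summed to 162 CPM in PBS 4, against 15.8 to 47.5 CPM in Poly(A:U) libraries and 29.4 to 33.4 CPM in the other PBS libraries. Neutrophil markers, led by S100a9 and Ngp, summed to 29.2 to 259 CPM in Poly(A:U) libraries and 49.3 to 1037 CPM in PBS libraries, with high values in PBS 1 to PBS 3, whose library names share a beginning. Erythroid markers, led by Hbb-bs and Hba-a2, summed to 1351 to 12287 CPM in Poly(A:U) libraries and 137 to 11907 CPM in PBS libraries, and were low in PBS 1 to PBS 3. The summed markers of dendritic, natural killer and stromal cells were each at most 13.3 CPM in Poly(A:U) libraries and 11.8 CPM in PBS libraries. Plasma cell markers, led by Slamf7 and Xbp1, summed to 287 to 418 CPM in Poly(A:U) libraries and 320 to 466 CPM in PBS libraries. Slamf7 alone averaged 225 CPM in Poly(A:U) libraries and 262 CPM in PBS libraries. Jchain averaged 11.7 ± 7.11 CPM in Poly(A:U) libraries and 27.6 ± 24.7 CPM in PBS libraries. Sdc1, Prdm1 and Tnfrsf17 each averaged at most 4.71 CPM in Poly(A:U) libraries and 4.94 CPM in PBS libraries. In bulk RNA, fewer cells of a type and less RNA per cell cannot be told apart.

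On a scale per transcript length, TPM, the receptors spanned a range from Tnfrsf13c down to Cr2. Means over the 10 libraries were 144 ± 24.3 TPM for Tnfrsf13c, 126 ± 27.4 TPM for Cd22, 124 ± 25.3 TPM for Cd72 and 123 ± 22.4 TPM for Tnfrsf13b (SD, n = 10). These levels overlapped between libraries, and Cd22 exceeded Cd72 in 5 of 10 libraries. Ighd followed at 76.1 ± 14.8 TPM and Ms4a1 at 63.9 ± 12.0 TPM, with Ighd above Ms4a1 in 7 of 10 libraries. Cd38 averaged 31.5 ± 5.96 TPM, Cd40 17.8 ± 5.97 TPM, Fcer2a 6.87 ± 3.52 TPM and Cr2 3.70 ± 1.53 TPM. Each step from Ms4a1 to Cd38, Cd40 and Fcer2a held in 10 of 10 libraries, and Fcer2a was above Cr2 in 9 of 10. The receptors of inhibition and BAFF signalling were thus the most abundant of the set, and the 2 most typical of follicular and marginal zone cells the scarcest.

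Start regions are shown for Cd22, Cd72 and Fcer2a, the receptors with a window that held a motif marked below. Their annotated transcripts begin at more than 1 place, as do those of others, such as Tnfrsf13b. Each runs from 250 bases before to 50 bases after a RefSeq start on build GRCm38.p6, minus strand, written 5′ to 3′ in the direction of transcription. Capitals mark a match on either strand to the EBF1 core (TCCC, 2 bases of any kind, GGGA), the PU.1 core GAGGAA or the TATA box TATAAA, and positions count from the start. An octamer search, ATGCAAAT, matched no window of the 7 receptors with an entry. The windows of Cr2, Cd38, Tnfrsf13b and Tnfrsf13c and a further Fcer2a window, not shown, held none of the motifs marked.
Cd22, chr7:30878979-30879278: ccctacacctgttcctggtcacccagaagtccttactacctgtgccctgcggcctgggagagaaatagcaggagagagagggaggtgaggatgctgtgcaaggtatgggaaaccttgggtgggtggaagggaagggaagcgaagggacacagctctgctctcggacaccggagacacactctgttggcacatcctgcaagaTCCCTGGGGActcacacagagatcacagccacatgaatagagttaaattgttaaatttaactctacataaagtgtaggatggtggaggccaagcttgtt
Cd72, chr4:43454577-43454876: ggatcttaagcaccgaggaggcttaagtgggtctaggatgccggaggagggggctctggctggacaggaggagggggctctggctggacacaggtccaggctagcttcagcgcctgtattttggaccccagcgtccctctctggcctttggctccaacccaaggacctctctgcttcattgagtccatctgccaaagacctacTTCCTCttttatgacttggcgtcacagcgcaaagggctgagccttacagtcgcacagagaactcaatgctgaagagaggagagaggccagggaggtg
Fcer2a upstream start, chr8:3694125-3694424: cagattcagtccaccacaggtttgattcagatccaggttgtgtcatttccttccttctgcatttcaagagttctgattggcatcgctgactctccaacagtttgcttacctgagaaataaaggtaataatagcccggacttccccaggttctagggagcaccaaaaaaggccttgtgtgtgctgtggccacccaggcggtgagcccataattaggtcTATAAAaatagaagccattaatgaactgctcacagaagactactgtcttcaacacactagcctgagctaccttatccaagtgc
Fcer2a downstream start, chr8:3690812-3691111: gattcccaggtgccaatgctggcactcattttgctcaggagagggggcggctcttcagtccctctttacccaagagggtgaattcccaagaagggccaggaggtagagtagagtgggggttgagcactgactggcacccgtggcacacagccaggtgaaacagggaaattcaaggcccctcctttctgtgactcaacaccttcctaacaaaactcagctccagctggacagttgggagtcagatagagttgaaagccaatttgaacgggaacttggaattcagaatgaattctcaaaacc
The Cd22 window holds an EBF1 core at position -49, a pattern present in 0.904% of 32851 promoters of the same length. The Cd72 window holds a PU.1 core, read on the opposite strand, at position -47, where 28.3% of promoters hold such a match. The upstream Fcer2a start has TATAAA at position -33, found in 13.6% of promoters, and the downstream start shown has none of the motifs marked. A match is a match of letters only.

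No receptor differed between Poly(A:U) and PBS pups beyond the spread between libraries. By edgeR's quasi-likelihood test with Benjamini-Hochberg adjustment over 13729 genes, 0 of 10 receptors passed an adjusted p of 0.05, and 0.00% of all genes did. At an unadjusted p under 0.05 the counts were 0 of 10 receptors and 7.30% of all genes. DESeq2's Wald test called 0 receptors and 0.0967% of genes. limma voom with quality weights called 1 receptor, Cd22 (log2 fold change -0.29, adjusted p = 0.0445), and 6.79% of genes. Over the 20 alternatives run the adjusted p of Cd22 ranged from 0.0445 to 0.997. Log2 fold changes were negative for 6 receptors and positive for 4, with 50.6% of all genes negative, and their median was -0.08, against -0.0024 over all genes tested. For no receptor were the groups' libraries fully separate, as they were for 0.947% of genes. The 95% interval left out a 1.5-fold change in either direction for 7 of the 10 receptors and a 2-fold change for 9. Fcer2a was the receptor whose interval included a 2-fold change.

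**Figure D1:**
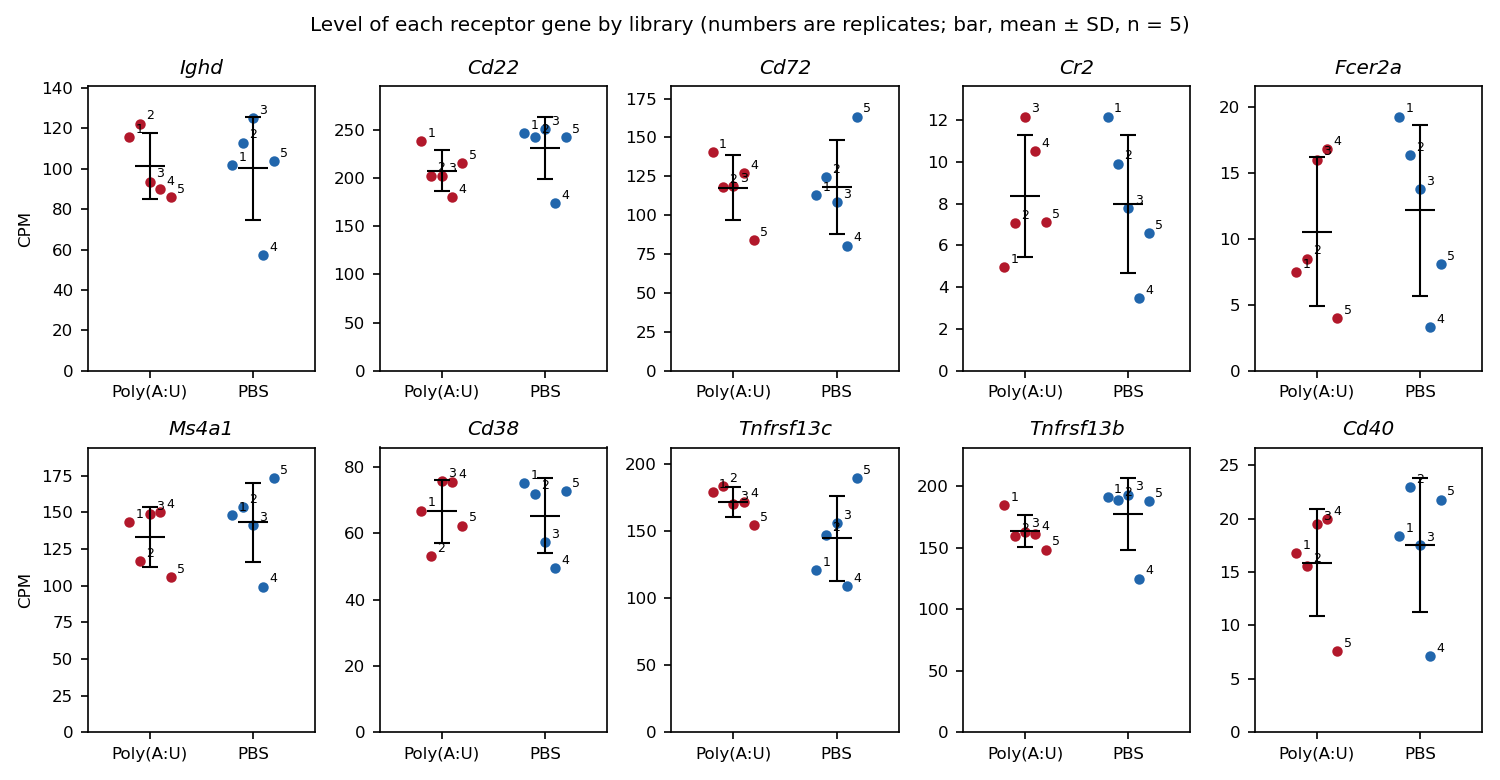
Level of each receptor gene in CPM (vertical axes, from 0) in the 5 Poly(A:U) libraries (red, left) and the 5 PBS libraries (blue, right). Small numbers are replicates and bars are mean ± SD. The groups overlap in all 10 panels, and PBS 4 is the lowest point in every panel.

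Ighd, on chromosome 12 (113406604 to 113416324, minus strand, GRCm38), encodes the heavy chain of IgD, which is spliced from the same long transcript as IgM. It stood at 116, 122, 93.7, 89.97 and 85.9 CPM in Poly(A:U) libraries 1 to 5 and at 102, 113, 125, 57.5 and 104 CPM in PBS libraries 1 to 5. The groups overlapped and PBS 4 was low. Its log2 fold change was 0.00092 with an SE of 0.19 (95% interval -0.41 to 0.41, adjusted p = 0.999, edgeR). Ighd-202, the transcript with the 2 exons of the membrane form, of 158 and 940 bases, took 99.8% of the gene's reads on average and at least 99.0% in each library. Ighd-201, which ends in a 94-base exon instead, took the remainder. In TPM, Ighd was 2.67 ± 0.262% of Ighm in Poly(A:U) libraries and 2.45 ± 0.516% in PBS libraries (SD, n = 5 each), a ratio chosen after the values were seen and not tested. The level of Ighd was thus a small fraction of that of Ighm in both groups.

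CD22 is a sialic acid-binding lectin that recruits the phosphatase SHP-1 to dampen the B cell receptor. Cd22 (chromosome 7, 30865402 to 30880342, minus strand) stood at 238, 203, 201.6, 180 and 216 CPM in Poly(A:U) libraries and at 247, 243, 250.5, 174 and 243 CPM in PBS libraries. All 5 Poly(A:U) libraries lay below 4 of the PBS libraries and above PBS 4. Poly(A:U) over PBS, the log2 fold change was -0.18 with an SE of 0.11 (95% interval -0.41 to 0.06, adjusted p = 0.700, edgeR), and -0.26 without PBS 4, where the adjusted p also missed the threshold. With the shared parts of library names as terms it was 0.09. That fit compares the groups only within name parts found in both: Poly(A:U) 5 with PBS 4, and Poly(A:U) 1 with PBS 5.

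CD72 is a second inhibitory receptor, whose ligand is the semaphorin CD100. Cd72 (chromosome 4, 43446462 to 43454628, minus strand) stood at 141, 118, 119, 127 and 84.3 CPM in Poly(A:U) libraries and at 113, 125, 109, 80.5 and 163 CPM in PBS libraries. The PBS libraries held both the highest and the lowest value. The log2 fold change was -0.02 with an SE of 0.18 (95% interval -0.41 to 0.36, adjusted p = 0.983, edgeR).

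CD21, the product of Cr2, binds the complement fragment C3d. Cr2 (chromosome 1, 195136811 to 195176716, minus strand) was the scarcest member, at 4.96, 7.09, 12.2, 10.5 and 7.12 CPM in Poly(A:U) libraries and 12.2, 9.91, 7.78, 3.49 and 6.60 CPM in PBS libraries. These levels rest on 71 to 257 estimated reads a library. The ranges overlapped over most of their length. Its log2 fold change was 0.04 with an SE of 0.31 (95% interval -0.63 to 0.72, adjusted p = 0.981, edgeR). It was -0.14 without PBS 4 and 0.70 without PBS 1 to PBS 3.

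CD23, the low-affinity IgE receptor encoded by Fcer2a, varied most among the libraries. Fcer2a (chromosome 8, 3681737 to 3694175, minus strand) stood at 7.47, 8.51, 16.0, 16.8 and 3.97 CPM in Poly(A:U) libraries and at 19.2, 16.4, 13.8, 3.29 and 8.06 CPM in PBS libraries. Its coefficient of variation over the 10 libraries was 50.7%, against 13.1% for Cd22, and its highest library was 5.84 times its lowest. High and low libraries occurred in both groups: Poly(A:U) 3 and 4 and PBS 1 to 3 were high, and Poly(A:U) 5 and PBS 4 were low. These sets follow shared parts of the library names: Poly(A:U) 3 and 4 share one, PBS 1 to 3 another, and Poly(A:U) 5 and PBS 4 a further one. Poly(A:U) over PBS, the log2 fold change was -0.22 with an SE of 0.50 (95% interval -1.34 to 0.89, adjusted p = 0.920, edgeR). Without PBS 4 it was -0.46, without PBS 1 to PBS 3 it was 0.87, and with the name parts as terms it was 0.016. The last fit compares the groups only within name parts found in both.

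The reads of Fcer2a fell on its upstream start. The 2 annotated transcripts that begin there took 99.1% of the gene's reads over all libraries, and the 6 that begin downstream took 19.5 estimated reads of the total. In PBS 4 the upstream share was 86.6%, with 58.0 reads upstream and 9.0 downstream. The share was 97.9% or more in each of the other libraries. Fcer2a-201, the upstream transcript with most of the reads, also extends beyond the downstream ones at its 3′ end, so reads there count for it as well.

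Ms4a1 encodes CD20, a membrane-spanning protein of B cells from the precursor stage on. Ms4a1 (chromosome 19, 11249675 to 11266241, minus strand) stood at 144, 117, 149, 150.3 and 106 CPM in Poly(A:U) libraries and at 148, 154, 141, 99.4 and 173 CPM in PBS libraries. The lowest library of each group, Poly(A:U) 5 and PBS 4, stood close together. The log2 fold change was -0.13 with an SE of 0.14 (95% interval -0.43 to 0.18, adjusted p = 0.807, edgeR).

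Cd38, an ectoenzyme that makes cyclic ADP-ribose (chromosome 5, 43868553 to 43912375, plus strand), stood at 66.9, 53.2, 75.7, 75.5 and 62.3 CPM in Poly(A:U) libraries and at 75.1, 71.98, 57.4, 49.4 and 72.8 CPM in PBS libraries. Both groups covered nearly the same range. Its log2 fold change was 0.0026 with an SE of 0.12 (95% interval -0.27 to 0.27, adjusted p = 0.999, edgeR).

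Of the TNF family receptors, the BAFF receptor gene Tnfrsf13c (chromosome 15, 82221743 to 82224369, minus strand) had the largest positive log2 fold change of the set. It stood at 179, 184, 170.2, 172 and 155 CPM in Poly(A:U) libraries and at 121, 147, 156, 109 and 190 CPM in PBS libraries. Poly(A:U) libraries were close to each other, while PBS libraries held both the highest and the lowest value. Poly(A:U) over PBS, the log2 fold change was 0.23 with an SE of 0.13 (95% interval -0.06 to 0.51, adjusted p = 0.695, edgeR).

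TACI, which binds BAFF and APRIL, is encoded by Tnfrsf13b (chromosome 11, 61126755 to 61149372, plus strand). It stood at 184, 160, 163, 161 and 149 CPM in Poly(A:U) libraries and at 191, 189, 193, 125 and 188 CPM in PBS libraries. As for Cd22, the Poly(A:U) libraries lay below 4 PBS libraries and above PBS 4. The log2 fold change was -0.14 with an SE of 0.12 (95% interval -0.39 to 0.11, adjusted p = 0.747, edgeR). The ratio of Tnfrsf13c to Tnfrsf13b in TPM was 1.33 ± 0.104 in Poly(A:U) libraries and 1.04 ± 0.201 in PBS libraries (SD, n = 5 each). It ran from 1.27 to 1.51 in Poly(A:U) libraries and from 0.775 to 1.33 in PBS libraries, where PBS 5 had the highest. This ratio was picked after its values were seen and has no test.

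CD40 receives help from T cells that carry its ligand. Cd40 (chromosome 2, 165055627 to 165072948, plus strand) stood at 16.8, 15.6, 19.5, 19.9 and 7.62 CPM in Poly(A:U) libraries and at 18.4, 22.9, 17.5, 7.13 and 21.8 CPM in PBS libraries. One library of each group was far below the rest. Its log2 fold change was -0.16 with an SE of 0.32 (95% interval -0.86 to 0.54, adjusted p = 0.906, edgeR). Without PBS 4 it was -0.36, and without PBS 1 to PBS 3 it was 0.12.

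**Figure D2:**
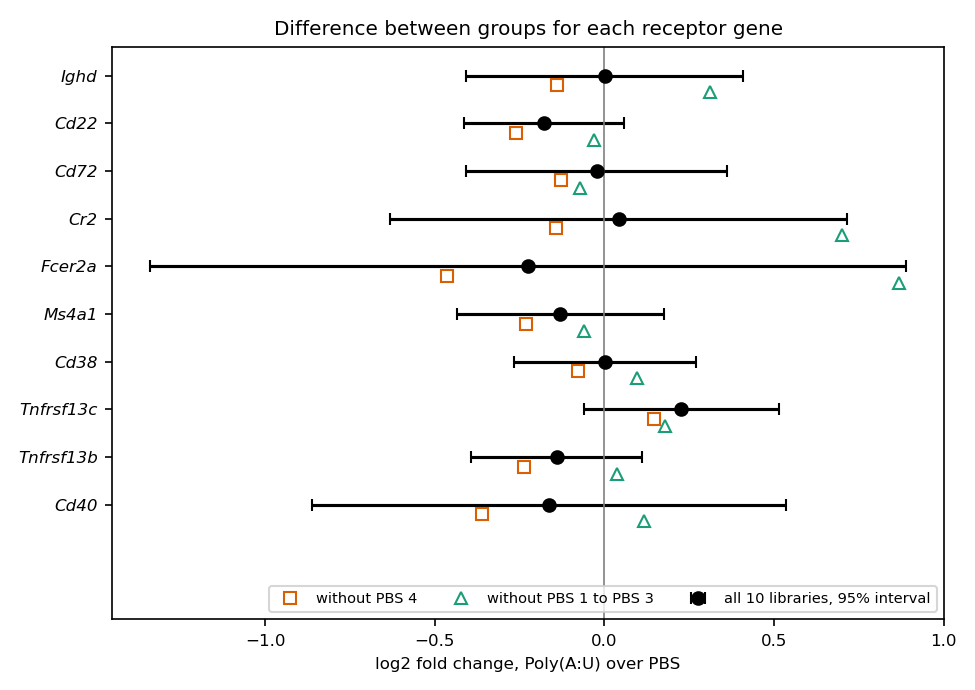
Log2 fold change of each receptor gene, Poly(A:U) over PBS (horizontal axis), with its 95% interval from the edgeR fit of all 10 libraries (black), and the value without PBS 4 (orange squares) and without PBS 1 to PBS 3 (green triangles). All 10 intervals include 0. Fcer2a, from -0.46 to 0.87 between the 2 reduced fits, moves farthest.

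PBS 4 was the lowest of the 10 libraries for all 10 receptors, and it was the lowest for 20.9% of all genes tested and for 22.1% of those with a mean of at least 5 CPM. After scaling by TMM factors it was the lowest for 7 of 10 receptors, against 18.8% of genes. Its CPM was between 0.239 (Fcer2a) and 0.729 (Cd22) times the median of the other 9 libraries. All 10 genes of the B cell receptor complex list were also below that median, among them Lilrb4a, untested and at 0 CPM there. So were all 15 of the list of CD22 and CD72 signalling and 9 of 10 precursor markers. The exception was Dntt, which adds untemplated bases to antigen receptor genes, at 2.01 times. The share of all genes tested that lay below that median was not counted. T cell and macrophage markers were high in the same library, as given above, and their part in the low receptor levels was not tested.

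Poly(A:U) 5, which shares a part of its library name with PBS 4, was low in several of the same receptors. These 2 libraries were the 2 lowest for 6 of 10 receptors, against 7.68% of genes. Dntt stood at 159 CPM in Poly(A:U) 5 and at 158 CPM in PBS 4, above the other 8 libraries. Between these 2, all 10 receptors were higher in CPM in Poly(A:U) 5, which follows from PBS 4 being the lowest library for all 10. After scaling by TMM factors, Poly(A:U) 5 was instead the lowest of the 10 libraries for Ms4a1 and Cd72. Between Poly(A:U) 1 and PBS 5, which share another name part across the groups, 1 of 10 was higher in Poly(A:U) 1, namely Ighd. With 1 library on each side, neither pair allows a test. The share of all genes higher in the Poly(A:U) library was not counted for either pair.

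**Figure D3:**
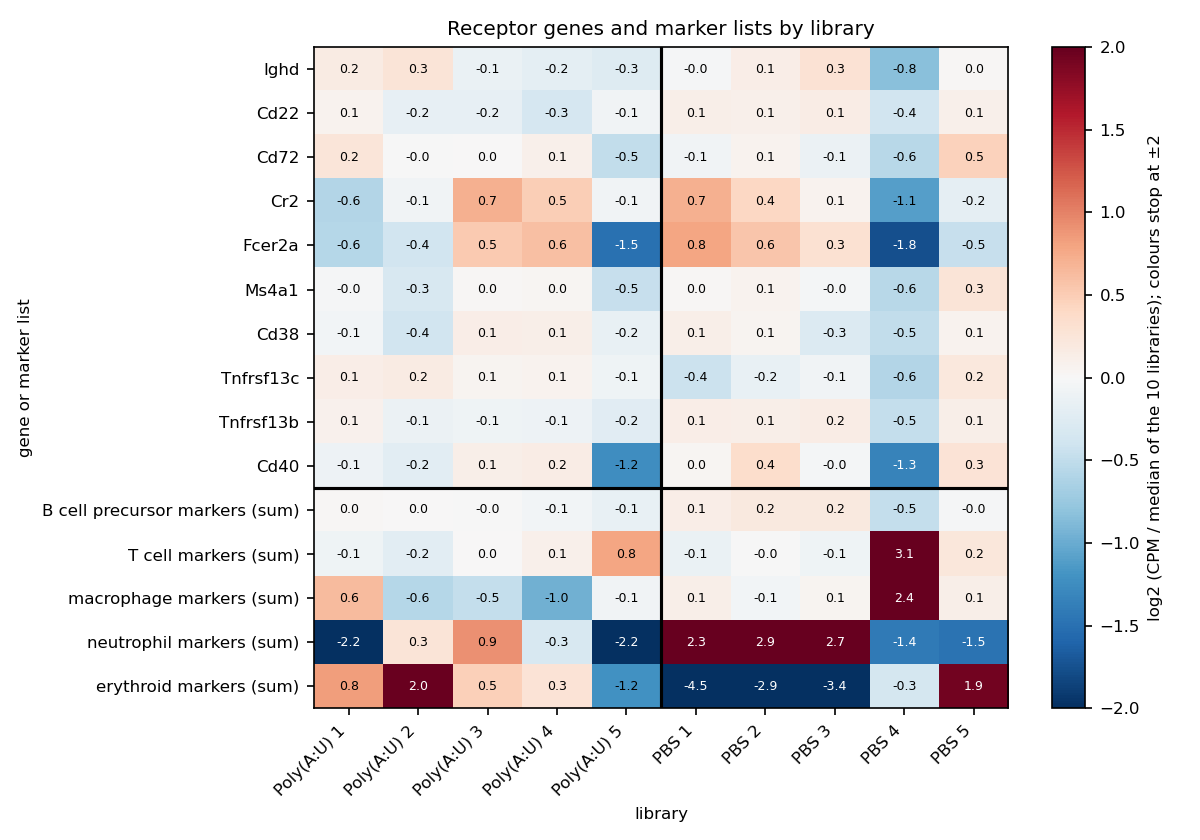
Log2 ratio of each library's CPM to the median of the 10 libraries (colour and printed value, colours stopping at 2 in either direction), for the 10 receptor genes and for the summed CPM of 5 marker lists. Columns are the Poly(A:U) libraries, then the PBS libraries. The PBS 4 column is below the median for all 10 receptors and above it for T cell and macrophage markers.

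Each receptor was compared with 9555 other protein-coding genes of at least 5 CPM (9556 for Ighd, itself not in that class) for likeness of log2 CPM over the 10 libraries. The most alike genes were Inpp5k for Tnfrsf13b (Pearson r = 0.993), Pdha1 for Fcer2a (r = 0.990), Samhd1 for Cd40 (r = 0.986), Ttyh3 for Cd22 (r = 0.979), Ifi209 for Cd38 (r = 0.965), Arl5c for Cd72 (r = 0.959), Mfsd3 for Ighd (r = 0.956), Rubcnl for Ms4a1 (r = 0.954), Ramac for Tnfrsf13c (r = 0.937) and Dgka for Cr2 (r = 0.909). These are descriptions over 10 libraries that share the low PBS 4 value. Each r is also the highest of at least 9555 candidates, so a high value can arise from that choice alone. Over the 9 libraries without it, Inpp5k (r = 0.992), Ttyh3 (r = 0.974) and Ifi209 (r = 0.944) were again the most alike genes of their receptors. The other 7 receptors then had another gene in first place, such as H2-Ab1, a class II histocompatibility chain, for Fcer2a (r = 0.991), Tifa for Cd40 (r = 0.981), Ccdc71 for Ighd (r = 0.980) and Ptp4a2 for Tnfrsf13c (r = 0.974). Among the receptors themselves, Cd40 and Ms4a1 were the closest pair over 10 libraries (r = 0.944).

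Transcript composition was compared for the 6 receptors with a transcript that took between 10% and 90% of the reads on average. In a two-sided exact permutation test over the libraries, 0 of 15 shares passed an adjusted p of 0.05 and 0 had an unadjusted p under 0.05. The smallest p was 0.0556 (adjusted 0.804), for Cd40-201, which took 14.1 ± 3.26% of Cd40 reads in Poly(A:U) libraries and 8.89 ± 3.90% in PBS libraries (SD, n = 5 each). Cd40-201 has an 87-base exon that the main transcript, Cd40-202, skips, and a longer 3′ end. Cd40-202 took 61.1 ± 7.63% in Poly(A:U) libraries and 61.6 ± 4.72% in PBS libraries. Shares of transcripts of one gene sum to a whole and are not independent.

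Cd22 reads went mainly to transcripts that begin upstream of the RefSeq start printed above, between 30880034 and 30880269. Cd22-201, which begins at that RefSeq start, took 6.79% of reads on average. Cd22-202, a coding transcript, took 34.0 ± 7.99% in Poly(A:U) libraries and 33.0 ± 9.30% in PBS libraries. Cd22-214, annotated as a target of nonsense-mediated decay, took 34.4 ± 5.57% in Poly(A:U) libraries and 36.6 ± 3.83% in PBS libraries. Against Cd22-202 it has 19 additional bases in 1 exon, 18 fewer in another and a shorter 5′ end. For Cd22-202 and Cd22-214 the group means lay closer together than the SD of either group.

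Cd72 was divided among Cd72-201, Cd72-203, which lacks a 72-base exon, and Cd72-205. Cd72-203 took 23.8 ± 5.94% in Poly(A:U) libraries and 23.7 ± 4.11% in PBS libraries. Mouse Cr2 encodes both CD21 and the longer CD35 by alternative splicing. Cr2-212, with 7 exons that Cr2-202 lacks, took 20.2 ± 10.6% of Cr2 reads in Poly(A:U) libraries and 14.3 ± 4.66% in PBS libraries (exact permutation p = 0.294). As annotated, Cr2-212 lacks the 2988-base exon at the 3′ end of Cr2-202, so reads there cannot count for it. Its share is thus not a measure of the share of CD35. Cr2-202 and Cr2-208 differ within the coding exons by 4 bases, and in single libraries 1 of them was often listed at 0, so that only their sum is readable. That sum was 60.4 ± 5.00% in Poly(A:U) libraries and 65.5 ± 10.2% in PBS libraries.

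**Figure D4:**
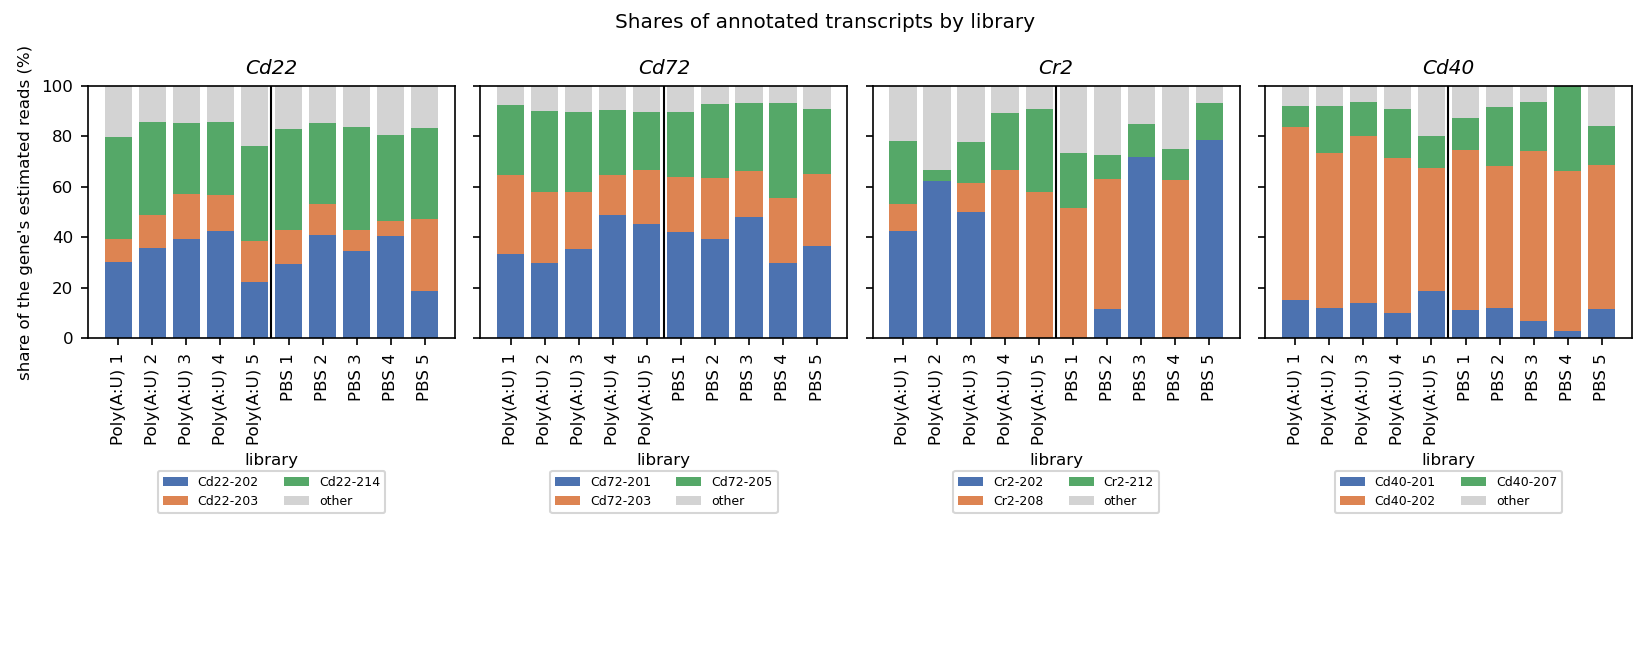
Share of each gene's estimated reads (vertical axis, percent) given to its annotated transcripts in each library, Poly(A:U) left of the black line and PBS right of it, for Cd22, Cd72, Cr2 and Cd40. Grey is the sum of all other transcripts. Blue and orange trade places in Cr2 between libraries of the same group. Of the 15 shares tested 0 passed the threshold, which a share on its own could not reach.

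Genes that act beside the receptors were read from the same edgeR fit, and none of them passed an adjusted p of 0.05. Over all genes tested, 7.30% had an unadjusted p under 0.05 and 50.6% a negative log2 fold change, the background for the counts that follow. Of 9 tested genes of the B cell receptor complex and its coreceptors, 4 log2 fold changes were negative and the median was 0.02. The smallest unadjusted p values there were those of Pirb, an inhibitory immunoglobulin-like receptor (-0.49), and Ighm (-0.14), with 3493 ± 467 CPM for Ighm in Poly(A:U) libraries and 3793 ± 714 CPM in PBS libraries. Of 15 genes of CD22 and CD72 signalling, 12 were negative and 1 had an unadjusted p under 0.05, with a median of -0.13. That gene was Ptpn6, which encodes SHP-1, at 299 ± 30.4 CPM in Poly(A:U) libraries and 354 ± 47.5 CPM in PBS libraries (log2 fold change -0.27, edgeR adjusted p = 0.677). Plcg2, a phospholipase of the pathway, had -0.18.

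Of 13 tested genes of BAFF, TACI and CD40 signalling, 5 were negative and 8 positive, with a median of 0.01. The 2 with an unadjusted p under 0.05 were Nfkb2 and Map3k14. Nfkb2, which encodes the p100 precursor of an NF-κB subunit, averaged 75.2 ± 6.85 CPM in Poly(A:U) libraries and 89.9 ± 16.2 CPM in PBS libraries (log2 fold change -0.28, edgeR adjusted p = 0.677). Map3k14, which encodes the kinase NIK, averaged 39.1 ± 4.30 CPM in Poly(A:U) libraries and 49.3 ± 13.6 CPM in PBS libraries (-0.36, edgeR adjusted p = 0.677). Relb, which encodes the partner of the Nfkb2 product, had a log2 fold change of 0.01 and Chuk, which encodes IKKα, 0.14; both were named after their values were seen.

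Of the receptors' ligands, 4 of 7 could be tested and 3 of them were negative. Cd40lg, the ligand of CD40, had no read in any library. C3, the source of C3d, averaged 1.74 ± 1.01 CPM in Poly(A:U) libraries and 7.57 ± 5.62 CPM in PBS libraries (log2 fold change -2.13, edgeR adjusted p = 0.677). It was high in PBS 1 to PBS 3, at 11.2 to 12.0 CPM, the libraries in which neutrophil markers were high, and the part of those markers was not tested. Sema4d, which encodes CD100, averaged 101 ± 14.1 CPM in Poly(A:U) libraries and 115 ± 15.8 CPM in PBS libraries (-0.20).

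Of 25 other surface genes of mature B cells, 18 were negative and 1 had an unadjusted p under 0.05, with a median of -0.12. That gene was Cd9, a tetraspanin (-2.45), whose PBS mean rests on PBS 4, at 21.3 CPM against at most 2.28 CPM in the other 9 libraries. Icosl, a costimulatory ligand, was next (-0.33). Of 11 surface genes of precursor stages, 9 were negative and 2 had an unadjusted p under 0.05. Il7r averaged 268 ± 23.99 CPM in Poly(A:U) libraries and 309 ± 45.5 CPM in PBS libraries (-0.23), and Kit, the stem cell factor receptor, averaged 0.928 ± 0.267 CPM in Poly(A:U) libraries and 1.77 ± 0.362 CPM in PBS libraries (-0.95). Of 12 regulators of IgD and late B cell genes, 9 were negative and 3 had an unadjusted p under 0.05, among them Notch2, the receptor that directs marginal zone fate (-0.43), and Klf3 (0.70). Zfp318, the factor needed for IgD transcripts, averaged 31.7 ± 10.4 CPM in Poly(A:U) libraries and 32.4 ± 5.44 CPM in PBS libraries (-0.06). It is named because of its role with Ighd and was chosen after its values were seen.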

How the data were processed

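Per the file headers, the authors deposited for each library an estimated count of reads and a TPM value per transcript. A table of normalized signal for all libraries, named by the authors as edgeR-normalized, served as an alternative only. DRAGEN, edgeR 3.38.4 and build mm10 are listed in the submitters' processing notes. Annotation release and strand use: not given in the sources used here.

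Estimated counts were summed per gene with GENCODE M21 and rounded. Of 142333 transcripts, 538 had no gene and held 0.046% to 0.0695% of a library's reads. CPM scales these sums to a common total. Groups were compared with edgeR 4.0.16 (R 4.3.3): filterByExpr with a minimum count of 10, TMM factors, robust quasi-likelihood test, treatment only, Benjamini-Hochberg adjustment over 13729 genes at 0.05, two-sided. Intervals are 95%. Alternatives used DESeq2 1.42.0, limma 3.58.1, other filters and factors, the replicate number, library names and each library left out. In simulated data for Poly(A:U) against PBS on 13729 genes the test found 28% of genes changed 1.5-fold, 69% of those changed 2-fold and 91.5% of those changed 4-fold. Each library came from a separate pup, per the series' design text, and errors cover the spread between pups. Cr2 and Fcer2a had the fewest reads. The authors' estimated counts divide reads among transcripts that share exons, which leaves single transcripts uncertain.

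The members and lists were chosen with earlier results of these data known. The named genes are the members, for each the gene with the highest Pearson r (prior count 2, with and without PBS 4), called genes of each neighbouring list or the 2 with the smallest unadjusted p, and the 2 most abundant genes of marker lists. Promoter sequences are from RefSeq (GRCm38.p6), with 9 entries for 7 of the 10 members.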

Additional observations from a re-analysis of the deposited data

Results flagged for a closer look

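In groups of 5 libraries, a value was singled out where its gap to the nearest other value was above 0.71 of the group's range. Of 82 groups of values examined, 11 held such a value, where chance gives about 1 in 20, and 6 of the 11 were in PBS 4. Cd22 stood at 174 CPM in PBS 4, against 243 to 250.5 CPM in the other PBS libraries. Tnfrsf13b stood at 125 CPM in PBS 4, against 188 to 193 CPM in the others. The B cell receptor complex list summed to 7494 CPM in PBS 4, against 10144 to 11136 CPM, and the list of other mature surface genes to 2306 CPM, against 2974 to 3224 CPM. T cell markers summed to 381 CPM in PBS 4, against 39.7 to 50.8 CPM, and macrophage markers to 162 CPM, against 29.4 to 33.4 CPM.

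Erythroid markers summed to 11907 CPM in PBS 5, against 137 to 2460 CPM in the other PBS libraries. Among Poly(A:U) libraries, the share of Tnfrsf13b-205 was 6.21% in Poly(A:U) 2, against 10.1% to 11.6%, and the list of CD22 and CD72 signalling summed to 4136 CPM there, against 4886 to 5093 CPM. In Poly(A:U) 5, T cell markers summed to 75.1 CPM, against 37.8 to 46.9 CPM, and dendritic cell markers to 4.17 CPM, against 1.69 to 2.23 CPM.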

How the results depend on the processing

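The edgeR test called 0 genes and 0 receptors under other size factors, no filter, a filter of 10 CPM (which dropped Cr2 and left 9 receptors), the library name terms and the authors' deposited signal tested with limma. DESeq2's Wald test called 13 genes, and limma voom with quality weights called 932 genes and 1 receptor, Cd22. Leaving out 1 library at a time gave 0 to 18 genes, the 18 without PBS 5, and 0 receptors and 0 transcript shares each time. In these permutation tests too, a transcript share on its own could not pass after adjustment. Without PBS 4 and Poly(A:U) 5 together, a choice made after seeing the data, 0 genes and 0 receptors were called. The shared replicate numbers do not mark shared animals, since each library came from a separate pup, per the series' design text. Same-numbered libraries correlated at -0.18 to 0.14, and 1 of 5 correlated best with its own number. These correlations cannot show whether the numbers mark some other pairing. With the replicate number as a block, 0 genes, 0 receptors and 0 transcript shares were called, and 5 pairs cannot give a share a p below 0.0625.

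Of 199 receptor fold changes under 20 alternatives, 165 kept direction and call, 33 had the opposite sign and 1 was called. Ms4a1 and Tnfrsf13c had 1 direction throughout. For Ighd the log2 fold change was -0.0104 both with DESeq2 size factors and in DESeq2, -0.19 in voom, -0.00020 with no filter, -0.0071 with the 10 CPM filter and -0.074 without both libraries. For Cd38 it was -0.0090 with size factors and -0.0091 in DESeq2, -0.0059 with the 10 CPM filter and -0.042 without both libraries, and for Cr2 -0.079 without both. Without PBS 1 to PBS 3 it was 0.87 for Fcer2a, 0.12 for Cd40 and 0.037 for Tnfrsf13b. With name terms it was 0.016 for Fcer2a, 0.091 for Cd22 and 0.058 for Tnfrsf13b. On the authors' signal it was 0.029 for Cd72. Leaving out 1 library gave -0.14 to 0.094 for Ighd, -0.076 to 0.055 for Cd38, -0.14 to 0.24 for Cr2, -0.36 to 0.012 for Cd40, -0.13 to 0.11 for Cd72, -0.46 to -0.0021 for Fcer2a, -0.26 to -0.13 for Cd22, -0.23 to -0.06 for Ms4a1, -0.24 to -0.11 for Tnfrsf13b and 0.15 to 0.33 for Tnfrsf13c. The cause was not tested. The fewest reads were behind Cr2, with 71 to 257 a library, and Fcer2a, with 67 to 394, and their biological coefficients of variation in the edgeR fit were 36.8% and 54.1%.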
